A study of Mus musculus with 32 samples.

Results

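The cells described here are untreated mouse embryonic fibroblasts (MEF), the starting population of a single-cell study of reprogramming to pluripotency. All barcodes of the 2 MEF libraries were taken, except those on the authors' list of irradiated feeder cells. This left 729 cells, 298 in MEF A and 431 in MEF B, of 7650 cells in the whole series of 32 libraries in 16 groups. Per the labels, the MEF were of embryonic age, received no treatment and grew in embryonic stem cell medium (knockout DMEM with 15% FBS and leukemia inhibitory factor). The labels give no strain, number of embryos or passage, and do not say that MEF A and MEF B came from separate cultures. The spread that the p-values rest on can therefore be technical. For tests within the MEF, that spread is how far a difference between classes of cells varied between the 2 libraries. For tests against other groups, it is the spread between libraries of a group.

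Other groups served for background only. FBS day 3 held 469 cells of MEF after 3 days of reprogramming in the same serum medium without small molecules. Per the protocol, reprogramming cultures grew on irradiated MEF with doxycycline at 2 ug/mL, and the labels do not name the factors that it induced. ESC held 302 cells of V6.5 mouse embryonic stem cells, also in serum medium and also without treatment.

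Fibroblasts in culture divide, build the collagen-rich extracellular matrix, and assemble actin stress fibres with which they pull on that matrix. The contractile programme is driven by serum response factor (SRF) with its cofactors, while YAP and TAZ with TEAD factors switch on adhesion and matrix-cell signalling genes when cells spread under tension. Dividing cells make DNA replication genes in S phase and mitotic genes in G2 and M. The mitotic genes share promoter elements, the CCAAT box and the CHR, and through the CHR they stay silent in resting cells.

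The libraries were made from the 3′ ends of transcripts in droplets, and each unique molecular identifier (UMI) counts 1 captured transcript. The median cell held 22796 UMIs and 5417.5 genes in MEF A, and 19102 UMIs and 5024 genes in MEF B. Of the MEF barcodes, 10 (3.25%) in MEF A and 13 (2.93%) in MEF B were on the feeder list. How the authors made that list is not given in the sources used here. No barcode was shared by MEF A and MEF B, and 6 occurred also in a library of another group. The libraries differed by more than sampling noise, with a chi-square of 2.16 per degree of freedom and a correlation of 0.993 over 12361 genes, so they were kept as 2 replicates. To compare cells of unequal depth, each was thinned at random to 5000 UMIs, and 12 and 24 shallower cells were left out, leaving 286 cells of MEF A and 407 of MEF B.

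The population carried the markers of fibroblasts. A list of 11 fibroblast genes was seen in every cell, with at least 29 UMIs in MEF A and 39 in MEF B. Acta2, smooth muscle actin (chr19:34241090-34255590, minus strand, mm10), had a UMI in 99.3% and 98.0% of cells of MEF A and MEF B. Col1a1, a chain of type I collagen (chr11:94936224-94953042, plus strand), had one in 95.1% and 95.3%. Thy1, a surface glycoprotein of fibroblasts (chr9:44043384-44048579, plus strand), had a UMI in 65.4% and 68.1% of cells, with exact Clopper-Pearson 95% intervals of 59.6% to 70.9% and 63.3% to 72.6% (74.5% and 74.7% before thinning). Twist1, a mesenchymal transcription factor (chr12:33957671-33959829, plus strand), had one in 42.7% and 40.0%. In ESC A and ESC B, thinned alike, the share was 1.64% and 1.35% for Thy1 and 0% and 0.676% for Col1a1.

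Markers of most other cell types were rare. No cell held 5 UMIs of 10 pluripotency genes, and Pou5f1 and Zfp42 were at 0 in both libraries. Under 2.5% of cells reached 5 UMIs of the epithelial, endothelial, blood, skeletal muscle, neural crest, fat or keratinocyte lists. Some members were at 0 in both libraries, such as Pecam1, Ptprc, Pax7 and Krt5, but others were not. A UMI was found in MEF A and MEF B for 6 and 5 of 9 endothelial markers. The numbers were 4 and 4 of 12 for blood and 8 and 8 of 11 for skeletal muscle. The highest cells of MEF B held 39 neural crest and 13 skeletal muscle UMIs. The pericyte list reached that level in 4.55% and 3.19% of cells. The cartilage and bone list did so in 42.7% and 45.0% of cells, mostly through Spp1. Col2a1, a collagen of this list, had a UMI in 8.04% and 10.1% of cells, with highest cells of 19 and 15 UMIs. Of the 10 markers of the list, 6 had a UMI in each library, while Matn1, Ibsp, Bglap and Alpl were at 0.

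Mitotic genes were scarce in most cells and abundant in some. The 60 genes of the G2/M list summed to a median of 9 and 11 UMIs per cell of 5000 in MEF A and MEF B, but the highest cells held 110 and 129 and the lower quartiles lay at 4 and 4. The upper quartiles were 32 and 41, so the cells trailed off upwards from a low median. The 42 replication genes of the S phase list had medians of 10 and 10 and highest cells of 50 and 57. The G2/M medians were 61.5 and 63.5 UMIs in ESC A and ESC B.

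Contractile and matrix genes were abundant in nearly all cells and varied by level. The 35 contractile genes, actins, myosins, tropomyosins and their regulators, summed to medians of 166 and 174 UMIs, with a range of 43 to 378 in MEF A and 22 to 538 in MEF B. The 56 matrix genes, collagens, fibronectin, proteoglycans and their processing enzymes, had medians of 249 and 237, with a range of 10 to 495 in MEF A and 4 to 521 in MEF B. In ESC the medians were 16 and 18 UMIs for the contractile list and 6 in both libraries for the matrix list. Lower quartiles of 129 and 134 UMIs (contractile) and 204 and 195 (matrix) in MEF lay far above those ESC levels, so most cells differed in how much, not in whether, they made these transcripts.

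Single genes showed the same contrast. Acta2 had a median of 25 and 25 UMIs per cell, quartiles of 14 to 38 in MEF A and 15 to 40 in MEF B, and highest cells of 117 and 182. Tagln, the actin-binding protein transgelin, had medians of 26 and 25 and highest cells of 79 and 95. Col1a1 had medians of 7 and 6 and highest cells of 31 and 34. Top2a, the topoisomerase of dividing cells (chr11:98992943-99024189, minus strand), was seen in 33.2% and 36.4% of cells, with highest cells of 9 and 10. Before thinning, it was seen in 45.6% and 47.1% of cells. In ESC A and ESC B, Top2a was seen in 87.7% and 91.9% of cells, and in the MEF libraries it was at 0 in 22 listed feeder barcodes, which allows a share with a UMI of up to 15.4% (exact upper bound). At this depth Acta2 was thus detected in nearly every cell and Top2a in a minority.

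**Figure D1:**
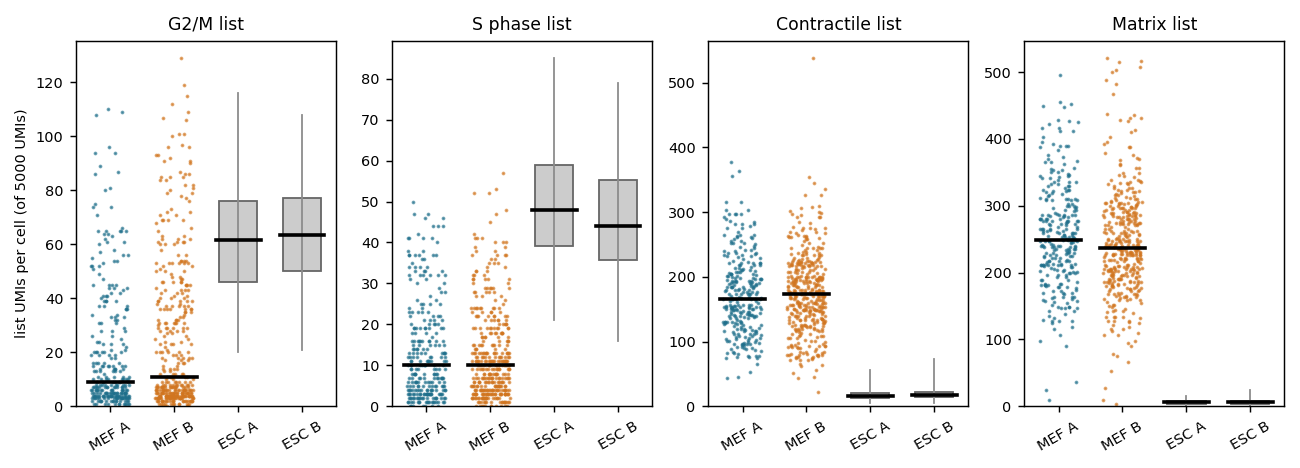
UMIs per cell, of 5000, in the G2/M, S phase, contractile and matrix lists, for MEF A and MEF B (1 point a cell) and for ESC A and ESC B (boxes from the lower to the upper quartile, lines to the lowest and the highest cell); black bars are medians. G2/M list UMIs run from near 0 to above 100 in MEF cells with medians of 9 and 11. Contractile and matrix list UMIs spread broadly, with medians of 166 and 174 and of 249 and 237. A few cells lie far below the others in the matrix list.

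Promoters were searched for motifs known from mitotic and contractile genes. Windows of 250 bases before to 50 after the start came from RefSeq (GRCm38.p6) for 17224 of the 24421 genes in the tables, and were searched on both strands. TTTGAA, the core of the CHR, occurred in the windows of 37 of 51 G2/M genes (72.5%), against 17.7% of all genes. CCAAT occurred in 39 of 51 (76.5%), against 42.0% of all genes, and both motifs in 33 of 51 (64.7%), against 7.20%. CCAAT was also in the windows of 21 of 31 S phase genes (67.7%) and 15 of 30 contractile genes (50%). Of 37 matrix genes with a window, 6 held TTTGAA (16.2%). The CArG box, which SRF binds, occurred in 6 of 30 contractile genes (20.0%: Cnn2, Myl9, Myl6, Vcl, Fhl2 and Srf), against 1.66% of all genes and 0 of 37 matrix genes. A match is a description of letters, not a bound site, and no match says only that these letters are not in this window.

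4 promoters show these arrangements. Capitals mark TTTGAA and CCAAT on either strand in the first 3 and the CArG box in the last. Top2a (chr11:99024140-99024439, minus strand) has 2 TTTGAA and 6 CCAAT matches, all upstream of the start. Cdc20 (chr4:118437294-118437593, minus strand), the activator of the anaphase-promoting complex, has 1 TTTGAA and 2 CCAAT, and Ccnb2 (chr9:70421505-70421804, minus strand), a mitotic cyclin, has 2 and 3. Myl9 (chr2:156775214-156775513, plus strand), the myosin regulatory light chain, has 1 CArG box at base -161. Each is written 5′ to 3′ on the strand of its gene.
Top2a: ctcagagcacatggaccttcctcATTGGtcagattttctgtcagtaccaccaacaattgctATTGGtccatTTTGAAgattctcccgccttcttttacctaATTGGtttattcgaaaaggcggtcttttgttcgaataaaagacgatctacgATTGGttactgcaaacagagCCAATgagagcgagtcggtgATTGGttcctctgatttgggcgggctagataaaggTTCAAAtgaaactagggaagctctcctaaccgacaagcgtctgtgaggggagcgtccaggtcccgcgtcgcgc
Cdc20: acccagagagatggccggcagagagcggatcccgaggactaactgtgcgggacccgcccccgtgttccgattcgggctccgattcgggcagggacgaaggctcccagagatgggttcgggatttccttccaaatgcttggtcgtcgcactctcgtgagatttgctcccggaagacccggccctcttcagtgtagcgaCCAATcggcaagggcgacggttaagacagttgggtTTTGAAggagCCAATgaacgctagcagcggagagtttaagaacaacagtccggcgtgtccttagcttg
Ccnb2: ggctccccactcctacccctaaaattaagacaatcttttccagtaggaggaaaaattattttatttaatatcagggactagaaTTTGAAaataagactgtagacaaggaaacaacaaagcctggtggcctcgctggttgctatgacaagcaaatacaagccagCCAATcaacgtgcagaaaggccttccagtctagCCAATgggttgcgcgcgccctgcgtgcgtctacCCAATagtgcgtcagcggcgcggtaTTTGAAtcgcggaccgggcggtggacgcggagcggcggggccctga
Myl9: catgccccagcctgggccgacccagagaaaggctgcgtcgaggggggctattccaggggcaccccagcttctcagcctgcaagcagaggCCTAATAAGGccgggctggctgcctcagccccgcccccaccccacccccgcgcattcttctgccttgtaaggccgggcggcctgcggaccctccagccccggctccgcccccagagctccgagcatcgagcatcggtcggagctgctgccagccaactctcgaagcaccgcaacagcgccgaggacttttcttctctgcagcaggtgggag

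The barcodes that the authors listed as irradiated feeder cells were low in cell cycle genes. Among the 22 that held at least 5000 UMIs, the G2/M list did not exceed 7 UMIs, with a median of 3. Of the MEF cells, 159 of 286 in MEF A (55.6%, 95% interval 49.6% to 61.4%) and 230 of 407 in MEF B (56.5%, 51.5% to 61.4%) lay above 7. Above the feeder maximum of 12 for S phase genes lay 41.3% of MEF A cells and 38.3% of MEF B cells. Both maxima were passed by 35.7% and 34.9% of cells, the G2/M maximum alone by 19.9% and 21.6%, the S phase maximum alone by 5.59% and 3.44%, and neither by 38.8% and 40.0%. The shares of MEF A and MEF B lay within each other's intervals, and the limits rest on only 22 feeder barcodes. Since it is not known whether the list was made from expression, these shares describe cells above the listed barcodes and are not shares of dividing cells.

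Across cells, S phase and G2/M UMIs rose together, with r = 0.63 and 0.63 in MEF A and MEF B. G2/M UMIs were higher where matrix UMIs were lower (r = -0.36 and -0.26), and were nearly unrelated to contractile UMIs (r = -0.08 and -0.06). Contractile and matrix UMIs were also nearly unrelated (0.08 and 0.01). These are correlations over 286 and 407 cells that share a library and a fixed sum of 5000 UMIs, given as descriptions. As list sums, mitotic RNA thus ran against matrix RNA, and neither ran closely with contractile RNA. Single pairs of genes varied: Top2a had r = 0.04 and -0.04 with Col1a1, and -0.16 and -0.12 with the matrix gene Tnc.

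**Figure D2:**
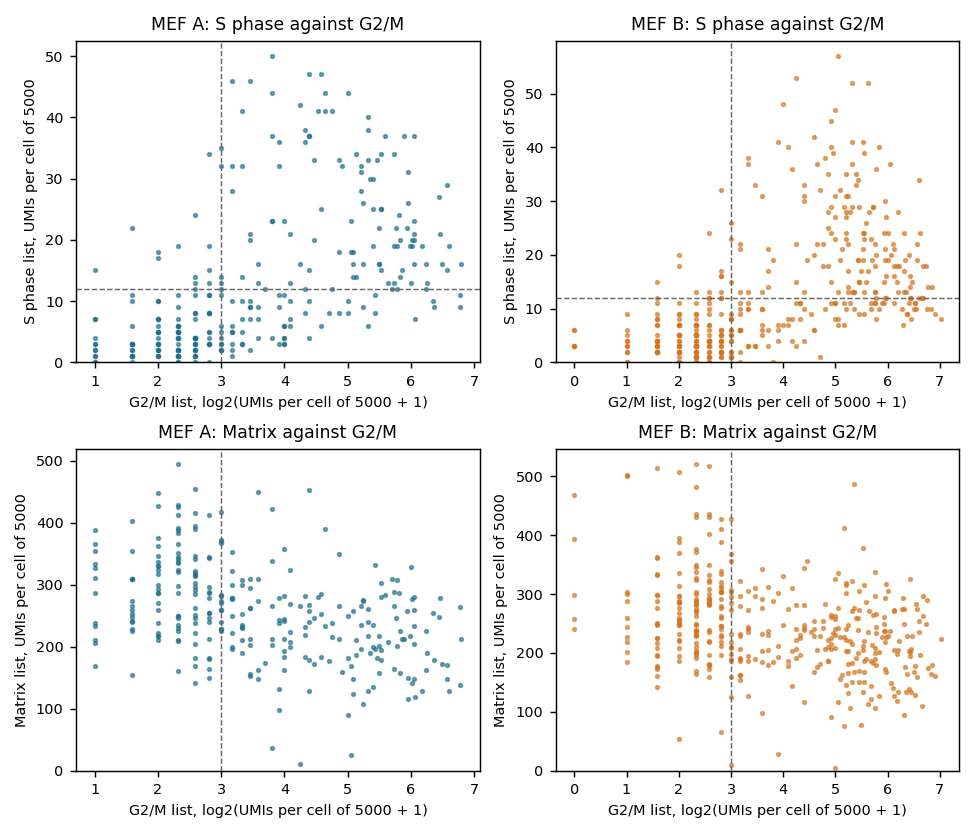
S phase (upper panels) and matrix (lower panels) list UMIs against log2 of G2/M list UMIs + 1 per cell, of 5000, in MEF A and MEF B, 1 point a cell, with dashed lines at the highest listed feeder barcode (12 S phase and 7 G2/M UMIs). Most cells above the S phase line also lie above the G2/M line, 38.8% and 40.0% of cells lie above neither, and matrix UMIs are lower to the right (r = -0.36 and -0.26).

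The genes that most closely followed Top2a, Acta2 and Col1a1 from cell to cell were ranked. Likeness was the mean over both libraries of the correlation of log2(UMIs + 1) over cells, ranked over 6377 genes. The 8 genes closest to Top2a were Ccnb1, Aurkb, Prc1, Cdk1, Ccna2, Ube2c, Birc5 and Mki67, led by Ccnb1, a mitotic cyclin, with r = 0.61 and 0.67 in MEF A and MEF B. Those closest to Acta2 were Tagln (r = 0.67 and 0.70), Myl9 (0.60 and 0.57), Tpm1, Tmsb4x, Tpm2, Actb, Cnn1 and Anxa1. Those closest to Col1a1 were Col1a2 (r = 0.68 and 0.64), Col5a1 (0.53 and 0.54), Sparc, Col6a1, Col3a1, Fbn1, Col6a2 and Fn1. Acta2 and Col1a1, both used as fibroblast markers, had correlations of -0.04 and -0.09 with each other.

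To find what else differed, the cells of each library were split by list UMIs, and the upper tertile (high cells) was compared with the lower tertile (low cells). The classes are ranges of a score, not cell types. UMIs were summed over the cells of each class and library, and levels are CPM, counts scaled to library size with TMM factors, in MEF A and MEF B. Tests used edgeR's quasi-likelihood test with the library as a block and Benjamini-Hochberg adjustment over all genes, called at an adjusted p under 0.05. With 1 residual degree of freedom the p-values rest largely on a spread shared across genes, and on the G2/M axis wholly so. Genes of the list that set the classes were left out of all counts.

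Cells high in G2/M genes were also high in the replication machinery and lower in matrix. Of 42 S phase genes, 41 were higher in G2/M-high cells and none was lower, with a median log2 fold change of 2.18, against a median of -0.01 and 14.6% higher over the 10526 genes tested. Of 55 matrix genes, none was higher and 38 were lower, with a median of -0.38, against 12% lower over all genes. The classes held 97 and 142 G2/M-high cells, with at least 20 and 31 list UMIs, and 97 and 159 G2/M-low cells, with at most 5 and 6. Within 1 UMI of those limits lay 8 and 11 high and 49 and 52 low cells. Median depth was 26879 and 20380 UMIs in G2/M-high cells, against 21738 and 19940 in G2/M-low cells.

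Among replication genes, Rrm2, a subunit of ribonucleotide reductase, had 519 and 459 CPM in G2/M-high cells, against 52.8 and 71.2 CPM in G2/M-low cells (log2 fold change 2.94 ± 0.09, adjusted p = 3.98e-211). Mcm5, a subunit of the replicative helicase, had 139.9 and 113 CPM in G2/M-high cells, against 28.5 and 33.2 CPM in G2/M-low cells (log2 fold change 1.99 ± 0.13). Ccne2, the cyclin that starts S phase, and Pcna, the sliding clamp, had log2 fold changes of 2.45 and 1.44. For these genes the summed level of high cells was above that of low cells in both libraries. Ung, the uracil glycosylase of base repair, was the 1 list gene not called (0.44, adjusted p = 0.282). Median S phase UMIs per cell were 19 and 17.5 UMIs in G2/M-high cells, against 3 and 4 in G2/M-low cells.

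The 8 genes with the largest increase in G2/M-high cells outside the list were Cep55, Pbk, Melk, Nek2, Fam83d, Fam64a, Parpbp and Spag5. Most act in mitosis: Cep55 in the final cut between daughter cells, Nek2 at the centrosome, Spag5 and Fam83d at the spindle, and Melk and Pbk as mitotic kinases. Summed over both libraries, Cep55 had 681 UMIs in G2/M-high cells, against 3 in G2/M-low cells (ratio 210 without TMM factors, 95% interval 71.5 to 1020). That interval covers counting error only, not the spread between cells or libraries. Melk had 82.4 and 89.4 CPM in G2/M-high cells, against 1.87 and 0.304 CPM in G2/M-low cells (log2 fold change 6.48 ± 0.29, adjusted p = 3.56e-106). The low cells were nearly empty of these transcripts in both libraries.

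Matrix genes were lower by modest amounts. Col1a1 had 1316 and 1205 CPM in G2/M-high cells, against 1905 and 1572 CPM in G2/M-low cells (log2 fold change -0.46 ± 0.06, adjusted p = 2.34e-13). Fn1, fibronectin, Sparc, a collagen-binding protein, and Tnc, tenascin C, had log2 fold changes of -0.52, -0.48 and -0.67. Median matrix UMIs per cell were 213 and 214 UMIs in G2/M-high cells, against 298 and 274 in G2/M-low cells, so even the high cells kept most of their matrix transcripts. With DESeq2 in place of edgeR, 21 of the matrix genes were called lower and 38 of the S phase genes higher. Over all 10526 genes of this axis, DESeq2 called 98 lower and 386 higher.

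Contractile genes differed little in size. Acta2 had 5533 and 5882 CPM in G2/M-high cells, against 5985 and 5979.9 CPM in G2/M-low cells (log2 fold change -0.07, adjusted p = 0.380). Of 33 contractile genes tested 2 were higher, Tagln2 and Smtn, and 11 were lower, against 14.6% higher and 12% lower over all genes. Their median was -0.08, and DESeq2 called none of the list lower. Thy1 was not called (0.04, adjusted p = 0.652), and Twist1 was higher (0.46, adjusted p = 3.95e-05), a call lost with DESeq2 (adjusted p = 0.290).

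Cell cycle inhibitors moved in both directions. Cdkn2c, the CDK4 and CDK6 inhibitor p18, had 50.1 and 53.6 CPM in G2/M-high cells, against 2.34 and 3.04 CPM in G2/M-low cells (log2 fold change 4.22 ± 0.28, adjusted p = 2.46e-50). Cdkn2d and Cdkn1b were also higher, with log2 fold changes of 2.15 and 0.62, and Cdkn2b, the inhibitor p15, was lower (-0.45). The 8 genes with the largest decrease were Upk1b, Hist1h2bc, Mt2, Ndrg4, Igfbp2, Sat1, Cemip and Neat1, among them a metallothionein (Mt2), an IGF binding protein (Igfbp2) and a nuclear long noncoding RNA (Neat1). Upk1b, a uroplakin known from the bladder lining (chr16:38773184-38800328, minus strand), had 1.55 and 2.75 CPM in G2/M-high cells, against 50.4 and 57.5 CPM in G2/M-low cells (log2 fold change -4.59 ± 0.28, adjusted p = 1.95e-56). Cemip was not called with DESeq2 (adjusted p = 0.333).

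Other lists held more lower than higher calls in G2/M-high cells, against 14.6% higher and 12% lower over all genes, though most members were not called. Of 20 immediate-early genes 1 was higher and 9 were lower (median -0.19), among them Myc (-0.25), Egr2 and Klf6. Of 19 cholesterol synthesis genes 7 were lower and of 19 amino acid and unfolded-protein genes 8 were lower, with DESeq2 2 and 0. Of 15 TGF-beta response genes 6 were lower, among them Tgfb2 (-0.63) and Tgfb3 (-0.44), and of 16 YAP targets 5, among them Ctgf (-0.39) and Cyr61 (-0.22). DESeq2 called 1 immediate-early, 2 TGF-beta response and 2 YAP target genes lower.

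Cells high in contractile genes were higher in YAP target genes and lower in secreted inflammatory genes. Of 16 YAP and TEAD targets, 12 were higher in contractile-high cells and none was lower, with a median log2 fold change of 0.50, against a median of -0.01 and 6.52% higher over the 10339 genes tested. Of 17 secreted inflammatory genes, 4 were higher and 12 were lower, with a median of -0.995, against 3.95% lower over all genes. The classes held 96 and 137 contractile-high cells, with at least 194 and 197 list UMIs, and 98 and 139 contractile-low cells, with at most 143 and 149. At most 9 cells of a class lay within 1 UMI of its limit, and median depth was 22961 and 20817 UMIs in high cells, against 21780.5 and 17612 in low cells.

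Ctgf, a matricellular YAP target, had 5065 and 4832 CPM in contractile-high cells, against 2689 and 2513 CPM in contractile-low cells (log2 fold change 0.93 ± 0.04, adjusted p = 5.44e-10). Ankrd1, another target, had 415 and 469 CPM in contractile-high cells, against 90.7 and 119 CPM in contractile-low cells (log2 fold change 2.07 ± 0.09). For both genes the summed level of high cells was the higher in each library. Cyr61, also a target, was higher by 0.22, and its call was lost with DESeq2 (adjusted p = 0.587). The number of YAP targets called was 6 with DESeq2, which on this axis called 171 genes higher and 57 lower of 9534. Median list UMIs per cell were 58 and 55 UMIs in contractile-high cells, against 33.5 and 34 in contractile-low cells. The relation was not particular to the contractile list. Over cells, YAP target UMIs had r = 0.36 and 0.32 with contractile UMIs and 0.29 and 0.36 with matrix UMIs. Their medians were 49.5 and 47 in the upper tertile of matrix UMIs, against 46 and 40.5 in the lower.

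Most chemokines and cytokines of the list went the other way. Ccl2 had 138 and 121 CPM in contractile-high cells, against 256 and 258 CPM in contractile-low cells (adjusted p = 1.04e-06). Il6 and Spp1, osteopontin (chr5:104435118-104441050, plus strand), had log2 fold changes of -0.96 and -1.93, and Spp1 stood at 799 and 1103 CPM in contractile-high cells, against 3457 and 3736 CPM in contractile-low cells. Csf1, the macrophage growth factor (1.16), and the chemokine Cxcl14 were among the 4 higher genes. Median list UMIs per cell were 16 and 17 UMIs in contractile-high cells, against 27 and 28 in contractile-low cells. With DESeq2, 7 genes of the list were called lower.

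Matrix genes moved in both directions on this axis. Of 55 tested 16 were higher and 16 were lower, with a median of -0.04, against 6.52% higher and 3.95% lower over all genes. The higher genes included the collagens Col4a1 (0.76) and Col4a2 (0.64), Nid1 (0.39), Lamb1 (0.39), Tnc (0.53) and Timp3, a metalloproteinase inhibitor (0.96). The lower genes included the collagens Col1a2 (-0.17), Col3a1 (-0.67), Col6a1 (-0.92) and Col6a2 (-0.78), and Eln, elastin (-2.26). Col1a1 had 1517 and 1239 CPM in contractile-high cells, against 1710.2 and 1449 CPM in contractile-low cells (log2 fold change -0.20, adjusted p = 0.0196), and lost its call with cells thinned to 2000 UMIs (adjusted p = 0.157), without the library block (0.172) and with DESeq2 (0.861). DESeq2 called 8 matrix genes higher and 10 lower.

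The fibroblast markers split as well. Thy1 had 1261 and 1220.3 CPM in contractile-high cells, against 717 and 659 CPM in contractile-low cells (log2 fold change 0.85 ± 0.06, adjusted p = 3.84e-08) and was the 1 higher gene of 10 fibroblast markers, of which 5 were lower. Pdgfra, the PDGF alpha receptor of fibroblasts, had 34.5 and 30.5 CPM in contractile-high cells, against 75.1 and 81.8 CPM in contractile-low cells (log2 fold change -1.29 ± 0.14). Of 20 mesenchymal regulators, 8 were lower and none was higher (median -0.38), but DESeq2 called 1 of them. Over all genes tested, 6.52% were higher and 3.95% were lower. H19, an imprinted long noncoding RNA (chr7:142575529-142578143, minus strand), had 705 and 610.5 CPM in contractile-high cells, against 1394 and 1135 CPM in contractile-low cells (log2 fold change -0.94 ± 0.06).

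The 8 genes with the largest increase in contractile-high cells were Lce1h, Ptprz1, Lims2, Tgm2, Sprr2k, Rnf128, Ankrd1 and Galnt18. Lims2 is a focal adhesion protein, and Tgm2 cross-links matrix proteins. Tgm2 had 116 and 112 CPM in contractile-high cells, against 21.3 and 16.6 CPM in contractile-low cells (log2 fold change 2.60 ± 0.15). Lce1h and Sprr2k belong to families of closely similar copies, and how shared reads were counted is not given in the sources used here, so their values are uncertain. The 8 with the largest decrease were Mt2, Col2a1, Cxcl1, Il1rl1, Eln, Mt1, Spp1 and Cxcl5. Il1rl1, the receptor of interleukin 33, had 66.7 and 70.5 CPM in contractile-high cells, against 402 and 303 CPM in contractile-low cells (log2 fold change -2.33 ± 0.11), and the metallothioneins Mt2 and Mt1 had log2 fold changes of -2.79 and -2.18.

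On the contractile axis 1 of 59 G2/M genes was higher and 6 were lower, and 1 of 42 S phase genes was higher and 3 were lower, against 6.52% higher and 3.95% lower over all genes. DESeq2 called none of either list. Of 4 cartilage and bone genes tested 3 were lower, Sox9, Col2a1 and Spp1. Their part in the other differences of the contractile axis was not tested.

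Cells high in matrix genes were lower in cell cycle genes and higher in cholesterol synthesis, unfolded-protein and secreted inflammatory genes. Of 59 G2/M genes, none was higher and 58 were lower, with a median log2 fold change of -1.58, against a median of 0.01 and 8.99% lower over the 10366 genes tested. This is the relation of the G2/M axis seen from its other side, in part through the same cells: 53 of 97 G2/M-high cells in MEF A (54.6%) and 67 of 142 in MEF B (47.2%) were matrix-low, and 12 (12.4%) and 29 (20.4%) were matrix-high. The classes held 96 and 138 matrix-high cells, against 96 and 136 matrix-low cells. At most 7 cells of a class lay within 1 UMI of its limit, and median depth was 21450 and 20051 UMIs in high cells, against 23130 and 20357 in low cells.

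Top2a had 67.2 and 147 CPM in matrix-high cells, against 292 and 323 CPM in matrix-low cells (log2 fold change -1.55 ± 0.14, adjusted p = 5.19e-10). Mki67, the proliferation marker, and Aurka, a spindle kinase, had log2 fold changes of -1.78 and -2.20. The summed Top2a level of matrix-high cells was higher in MEF B than in MEF A, and below that of matrix-low cells in both. The 8 genes with the largest decrease were all mitotic: Aurka, Cenpe, Cep55, Cenpf, Bub1, Ccnb1, Ccnf and Kif23, of which Cep55 and Kif23 were not called with DESeq2 (adjusted p = 0.140 and 0.112). Of 42 S phase genes, 27 were lower (median -0.60), against 8.99% lower over all genes, and with DESeq2 5 were lower. Over all 7136 genes with a DESeq2 value on this axis, 127 were called higher and 142 lower.

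Of 19 cholesterol synthesis genes, 11 were higher and none was lower (median 0.65), against 8.85% higher over all genes. Hmgcs1, which makes HMG-CoA, had 300.3 and 215 CPM in matrix-high cells, against 106 and 104 CPM in matrix-low cells (log2 fold change 1.27 ± 0.12, adjusted p = 1.40e-09). Of 19 genes of amino acid and unfolded-protein stress, 10 were higher and 1 was lower (median 0.33), among them Xbp1, a transcription factor of the secretory pathway (0.57), and Hspa5, the chaperone BiP (0.31, a call lost with DESeq2 at an adjusted p of 0.107). These counts were 3 and 1 with DESeq2, and 7 and 5 without the filter on low counts.

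Of 16 secreted inflammatory genes, 9 were higher and 2 were lower (median 0.74), against 8.85% higher and 8.99% lower over all genes. DESeq2 called 5 of the list higher. Ccl2 had 317 and 297 CPM in matrix-high cells, against 139.6 and 148 CPM in matrix-low cells (log2 fold change 1.09 ± 0.11), and Spp1 had 2734 and 2697 CPM in matrix-high cells, against 1600.2 and 1067 CPM in matrix-low cells (log2 fold change 1.05 ± 0.09). Among fibroblast markers, Pdgfrb, the PDGF beta receptor, had 143 and 127 CPM in matrix-high cells, against 52.7 and 45.0 CPM in matrix-low cells (log2 fold change 1.46 ± 0.13, adjusted p = 4.74e-10). Inflammatory genes were thus more often called higher than lower in matrix-high cells, and more often lower than higher in contractile-high cells.

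Of 33 contractile genes, 14 were higher and 1 was lower (median 0.22), against 8.85% higher and 8.99% lower over all genes. However, DESeq2 called 1 higher and the fit without the low-count filter 5. Acta2 had 6410.0 and 5817 CPM in matrix-high cells, against 4631 and 5692 CPM in matrix-low cells (log2 fold change 0.25, adjusted p = 0.0286), a call that was lost with DESeq2 (0.765), and Thy1 (0.44, adjusted p = 0.00132) was lost there as well (0.612). Cdkn2a (1.12) and Cdkn2b (0.84), inhibitors that accumulate in ageing cultures, were higher in matrix-high cells, and Cdkn2c was lower (-1.23). The Cdkn2b call was lost with DESeq2 (adjusted p = 0.0792).

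The 8 genes with the largest increase in matrix-high cells were Upk1b, Aspn, Pappa, Prelp, Ccl7, Cxcl14, Dkk3 and Gpr153. Upk1b led them, with 52.0 and 71.1 CPM in matrix-high cells, against 0.836 and 5.22 CPM in matrix-low cells (log2 fold change 4.26 ± 0.29, adjusted p = 1.45e-12), and was also the gene with the largest decrease in G2/M-high cells. Aspn and Prelp are small leucine-rich matrix proteoglycans, and Pappa is a protease of IGF binding proteins. Pappa had 98.7 and 115 CPM in matrix-high cells, against 21.7 and 33.9 CPM in matrix-low cells (log2 fold change 1.93 ± 0.16). Aspn was not called with DESeq2 (adjusted p = 0.118). Of 20 imprinted genes, 6 were higher, among them Meg3 (1.02), and none was lower, against 8.85% higher and 8.99% lower over all genes. Of 4 pericyte markers tested 3 were higher, Cspg4, Notch3 and Myh11, and their part in the other differences was not tested.

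**Figure D3:**
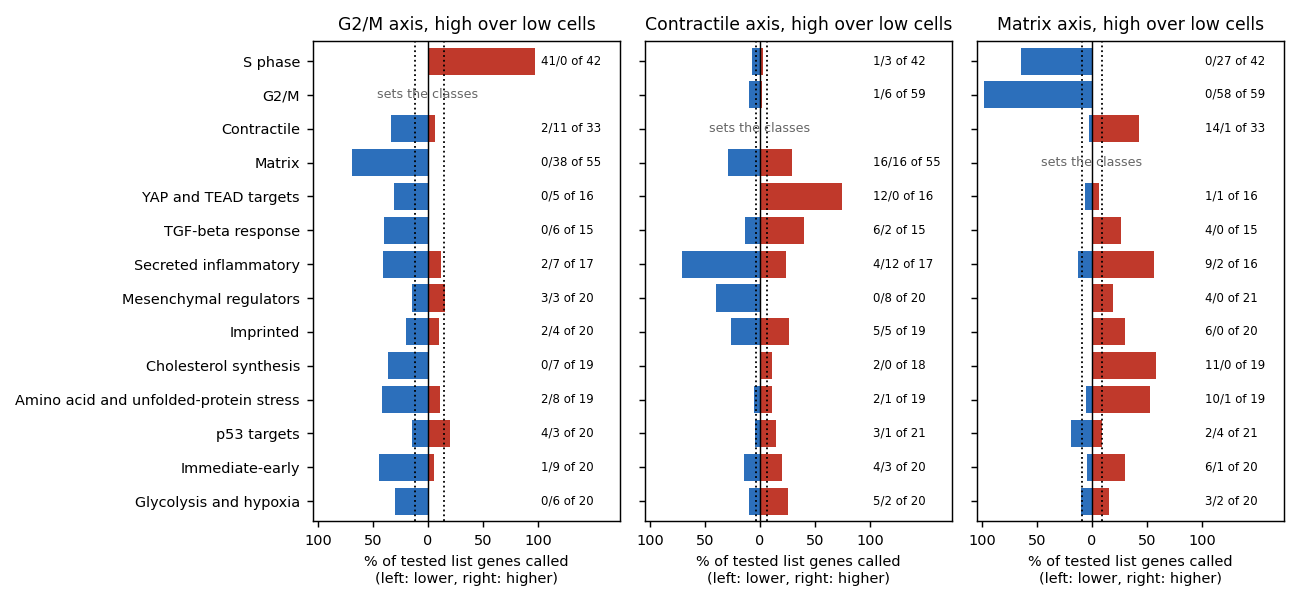
Percent of the tested genes of each list called higher (to the right) or lower (to the left) in high over low cells on the G2/M, contractile and matrix axes, with dotted lines at the percent of all genes called each way; numbers are genes higher, genes lower and genes tested. S phase genes stand out on the G2/M axis (41 of 42 higher), YAP targets on the contractile axis (12 of 16 higher) and G2/M genes on the matrix axis (58 of 59 lower).

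**Figure D4:**
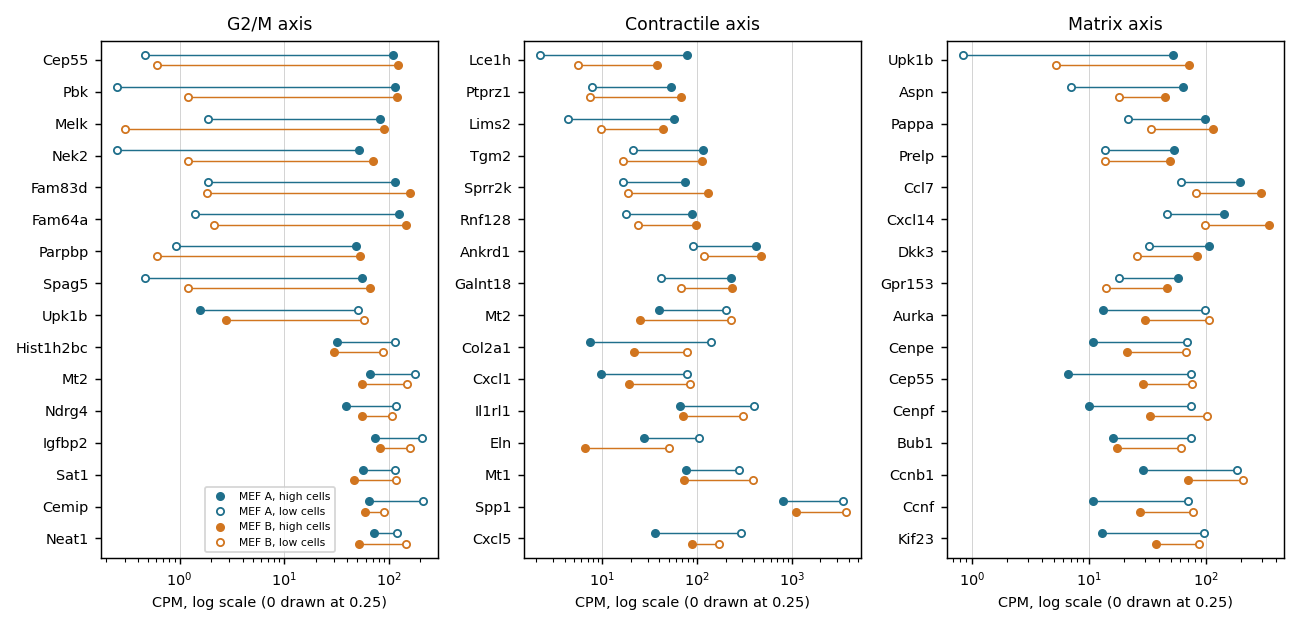
Levels in CPM (log scale) of the 8 genes with the largest increase and the 8 with the largest decrease on each axis, in high cells (filled) and low cells (open) of MEF A and MEF B. Filled and open points are separated in the same direction in both libraries, as the rule for naming genes required.

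Spp1, H19, Mgp and the metallothioneins Mt1 and Mt2 varied most between cells for their level, and no gene of the cell cycle lists was among the first 20. Relative variability was log2 of the variance over the mean, less the trend over genes of like mean. Over 6654 genes with a mean of at least 0.1 UMI per cell, its values in MEF A and MEF B had a correlation of 0.82. Of these, 430 in MEF A and 402 in MEF B exceeded 0.5, and 318 did so in both (74.0% and 79.1%). The 20 genes of highest relative variability included Spp1, H19, Mgp, Mt1, Mt2, Ppbp, Cxcl5, Igf2, Ccl2, Igfbp2, Eln, Postn, Col2a1, Timp3, Thbs1, Acta2, Cxcl14, Ccl7 and Ctgf.

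Spp1 led in both libraries, at 4.54 and 4.40. It was seen in 67.8% of cells of each, at a median of 3 UMIs per cell, but reached 228 UMIs in a cell of MEF A and 147 in MEF B. The 10% of cells with most Spp1 held 55.7% and 57.1% of its UMIs. Ppbp, a platelet chemokine, was seen in 11.5% and 9.83% of cells, and 97.1% and 100% of its UMIs lay in the top 10%. Eln was seen in 7.69% and 3.44% of cells. Some transcripts were therefore near absent from most cells and abundant in a few.

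H19 had a relative variability of 3.55 and 3.81, and Igf2, the growth factor gene beside it under shared imprinting control, had 3.39 and 2.68. The correlation of H19 and Igf2 over cells was 0.49 and 0.40. Mt1 and Mt2, neighbouring metallothioneins, had 0.58 and 0.57, and the chemokines Ccl2 and Ccl7, also neighbours, had 0.47 and 0.53. Ctgf and Thbs1 also varied together, with 0.57 and 0.52. Not all of the variable genes had such a partner, and Ppbp and Cxcl5 had 0.17 and 0.10.

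By list, all 14 secreted inflammatory genes with a value exceeded 0.5 in both libraries. So did 10 of 11 fibroblast markers, 36 of 51 matrix genes (medians 0.92 and 0.89), 24 of 54 G2/M genes, 12 of 31 contractile genes, 5 of 13 YAP targets and 5 of 33 S phase genes, against 318 of all 6654. Among the markers, Acta2 had 2.65 and 2.60, Thy1 2.23 and 2.01, Col1a1 1.38 and 1.33, and Twist1 0.32 and 0.30. Of the 4 markers only Twist1, the scarcest, stayed below 0.5.

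**Figure D5:**
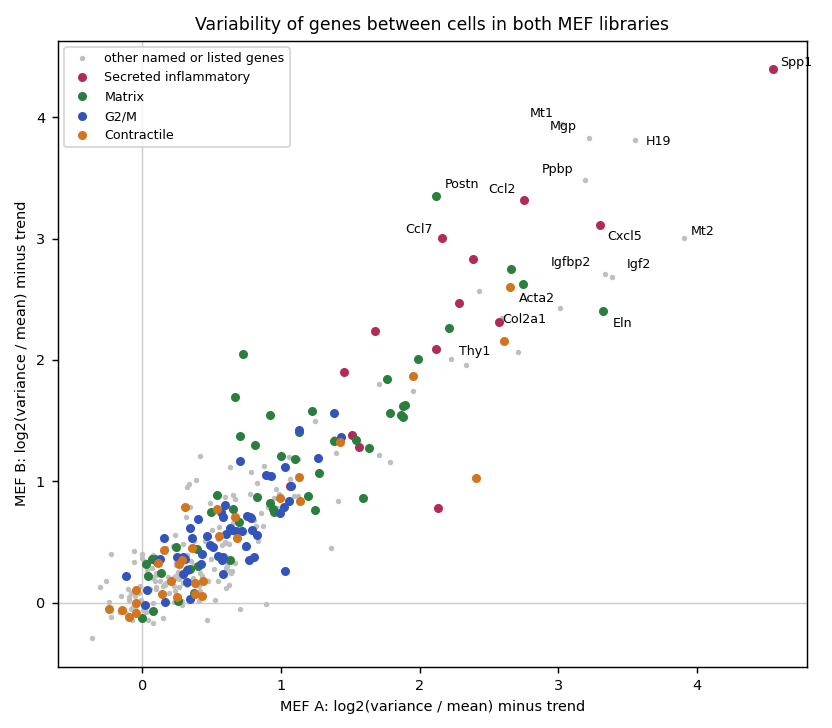
Relative variability between cells (log2 of variance over mean, less the trend) in MEF A and MEF B for the genes named or listed in the text; points are genes, coloured by list. Points lie along the diagonal, with Spp1 at 4.54 and 4.40 farthest out.

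Whether this variability was particular to untreated cells was tested against FBS day 3 and ESC, with all cells thinned to 2000 UMIs and limma run over all 32 libraries. No gene was more variable in MEF than in FBS day 3 and 3 of 3232 (0.0928%) were less variable, while 121 had an unadjusted p under 0.05. Ppbp had a relative variability of 1.24 and 2.34 in MEF, against 4.98 and 5.11 in FBS day 3 (difference -3.25 ± 0.63, adjusted p = 0.0137). Cst3, the protease inhibitor cystatin C, had a difference of -2.23 (adjusted p = 0.00148), and B2m, the light chain of MHC class I, of -2.05 (adjusted p = 0.0247). All 3 calls were of genes more uneven in the reprogramming culture, and the number of calls was 1 without MEF A, 2 without MEF B, and 6 without FBS day 3 A. In FBS day 3 A and B, 35.8% and 26.9% of barcodes were on the feeder list, against 3.25% and 2.93% in MEF. Whether unlisted feeder cells remained in FBS day 3 was not tested.

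Spp1, Acta2, Thy1 and the matrix genes did not pass this test. Spp1 had 3.42 and 3.29 in MEF, against 6.49 and 5.23 in FBS day 3 (difference -2.51 ± 0.68, adjusted p = 0.349). Acta2 and Thy1 had differences of -0.30 ± 0.65 and 0.47 ± 0.37. None of 39 matrix genes was called, with a median difference of -0.20, against -0.01 over all genes. Against ESC, no gene of 2528 (0%) was called, and 183 had an unadjusted p under 0.05. Without ESC B 26 were called. With 2 libraries a group these tests do not show that the variability was alike.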

How the data were processed

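UMI counts were used as the authors deposited them: whole numbers of unique molecular identifiers per cell and gene, 1 table a library, made with the ddSEQ droplet instrument and the SureCell 3′ kit, per the labels' protocols. The submitters' processing notes name bcl2fastq 2.19, STAR and the mm10 build. The sources used here name neither the annotation nor the program that counted UMIs. MEF A and MEF B held 6987382 and 8848775 UMIs in the kept cells. A UMI was found in MEF for 15321 of 24421 genes, none of them mitochondrially encoded. The authors' feeder list was matched by group and barcode, and 2 further columns of it were not used.

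Cells were thinned to 5000 UMIs (seed 1) with numpy 2.4.6 and pandas 2.3.3 in Python 3.11.15. Cells were not clustered, and doublets were not called; an alternative left out the 5% of cells with most UMIs. High and low cells were the upper and lower tertile of a list's UMIs in each library, ties included. Their full counts were summed per library and tested with edgeR 4.0.16 in R 4.3.3 (TMM factors, filterByExpr, library as a block); SEs are the fold change over the root of the F statistic. Relative variability used a lowess trend (statsmodels 0.14.6) and limma 3.58.1. Intervals are exact Clopper-Pearson at 95% and cover counting error only. Both tests were tested on simulated data with 200 changed genes each. Of genes changed 2-fold, 68.3% of 63 (G2/M), 78.3% of 69 (contractile) and 69.7% of 66 (matrix) were called. Of genes changed 1.25-fold, 3.75%, 8.77% and 1.52% were called, and false calls numbered 1, 2 and 0. Of genes shifted by 1 in relative variability, 85.9% of 64 (FBS day 3) and 97.2% of 71 (ESC) were called. That test gave 3 and 7 false calls. The simulations drew noise from a model and did not select cells by a score, so these numbers need not hold in the data.

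The members and gene lists were chosen with earlier results of these data known. Genes to name on an axis were the 8 called genes that were most increased and the 8 most decreased by fold change outside its list, at 50 CPM or more in the higher class, in the same direction in both libraries, without ribosomal-protein, predicted and Rik genes; for variability, the 20 of highest mean; the 4 markers and list members were added. The library block pairs high and low cells of the same droplets. Alternatives were DESeq2 1.42.0, RLE factors, no low-count filter, no block, thinning to 2000 or 10000 UMIs, quartiles in place of tertiles, thinned counts summed, feeder barcodes kept and, chosen after seeing the data, cells under 100 matrix UMIs left out. A few genes that these rules name are not reported here.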

Additional observations from a re-analysis of the deposited data

How the results depend on the processing

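Of the counts of genes called, 2799 on the G2/M axis, 1082 on the contractile axis and 1849 on the matrix axis, the thinned counts in place of the full ones gave 904, 521 and 781, and DESeq2 484, 228 and 269. Without the low-count filter the matrix axis gave 1031. Without the replicate block the counts were 2333, 1060 and 1744, and with cells under 100 matrix UMIs left out, chosen after seeing the data, 2724, 837 and 1936. Leaving out a library left the axes with no test. No result reversed. DESeq2 ended the calls of 20 named-gene results, and over all alternatives 867 values of named genes kept their direction and their side of the threshold, 58 lost the call and 21 with no test moved. Of the list counts 840 stayed within 1.5 times and 216 did not, and DESeq2 moved 70 of 96. Of the shares of cells, 36 moved with the thinning depth and 6 did not. For variability against FBS day 3, the 3 calls became 7 at 4000 UMIs, 5 with feeder barcodes kept, 1 with the replicate block and 1 in a fit of only those 2 groups, and 1 to 6 when a library was left out. Against ESC, the 0 calls became 11 at 4000 UMIs, 1 at a mean of 0.05 UMI, 39 with feeder barcodes kept, and 0 to 26 when a library was left out (26 without ESC B). Causes were not tested. Libraries of the same letter did not deviate together from their group means (15 correlations with MEF from -0.05 to 0.06), so the letters were not taken as pairs. Depth limits scarce genes: Twist1 had a median of 0 UMIs per cell.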

Other observations

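Thy1 is described here after its values were seen, as the marker that followed the contractile axis. Over cells of MEF A and MEF B, the genes most like Thy1 included Gsto1, Dlk1, an imprinted membrane protein (r = 0.40 and 0.40), Timp3, Pdzrn3, Col4a1, Crabp1 and Fbln2. The most opposed were H19 (-0.41 and -0.28), Mgp, an inhibitor of calcification (-0.39 and -0.30), and Igf2 (-0.37 and -0.30). H19, Mgp and Igf2 were also among the 20 genes of highest relative variability. The correlations are over 286 and 407 cells of 1 library each and are given as values.

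A few cells stood apart in matrix level. In MEF A 5 cells (1.75%) and in MEF B 10 cells (2.46%) held under 100 matrix UMIs of 5000. Their median depth was 8297 and 7560.5 UMIs, against 23203 and 20378 in the other cells. Actb, cytoplasmic actin, had medians of 112 and 112 UMIs in them, against 51 and 46, and S100a6, a calcium-binding protein, 65 and 41.5, against 20 and 19. Their contractile list medians were 210 and 178 UMIs, against 166 and 174, and their fibroblast list held at least 58 and 46 UMIs. Their G2/M list medians were 18 and 21.5 UMIs, against 9 and 11. These cells were few, shallow and rich in Actb. The fibroblast list sums Acta2, Vim and S100a4 with collagens that are also in the matrix list. Its members were not described singly in these cells, so the sum does not name their cell type.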
